A study of Homo sapiens with 6 samples.

Results

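The genes described here are the matrix metalloproteinases (MMP), the ADAMTS proteases and the tissue inhibitors of metalloproteinases (TIMP). They were chosen by name, as the protein-coding genes whose symbol is MMP with a number and an optional letter, ADAMTS with a number, or TIMP1 to TIMP4. The choice gave 46 of 58735 genes in the deposited table, namely 23 MMP, 19 ADAMTS and 4 TIMP genes. Their RNA was measured in 6 libraries of H9, an established human embryonic stem cell line, at the start (day 0), on days 2 to 4, on day 6 and on day 30 of differentiation into cardiac organoids, small cultures of heart cell types that grow in 3 dimensions. All 6 libraries come from the same line, and per the labels each time point pooled 10 organoids and is 1 library. No agent, dose or genetic change is named in the labels, which call the cell type of every library embryonic stem cell. No difference below has a replicate check, and no p-value is given.

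MMPs and ADAMTS proteases are zinc-dependent enzymes that cut the extracellular matrix. MMPs are made as inactive pro-enzymes and cut collagens, laminins, fibronectin and many surface proteins, either from solution or, in the membrane-type members, from the cell surface. ADAMTS proteases are secreted and are more selective, with members that cut proteoglycans such as versican, members that trim procollagens, and 1 that cuts von Willebrand factor. TIMPs bind the active site of these enzymes and block it. In the embryonic heart, cells migrate through matrix and the cardiac jelly is later removed, and versican-cutting ADAMTS members are known for that removal.

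Levels are given as FPKM, reads per unit of gene length after division by a size set for each library, so that values of different genes can be compared per length. Summed over the 23 MMP genes, FPKM was 74.1 at day 0, 205 at day 2, 249 at day 3, 280 at day 4 (279.7), 218 at day 6 and 728 at day 30. The 19 ADAMTS genes summed to 51.9, 74.0, 93.7, 109, 134 and 398 FPKM on the same days. The 4 TIMP genes summed to 33.6, 34.7, 45.2, 53.1, 50.1 and 1362 FPKM. The MMP sum was thus highest of the 3 families on each day up to day 6, and the TIMP sum was highest at day 30. The ratio of the TIMP sum to the MMP sum was 0.454 at day 0, between 0.169 and 0.229 from day 2 to day 6, and 1.87 at day 30. Taken on reads not divided by gene length, that ratio was 0.203 at day 0, between 0.0815 and 0.118 from day 2 to day 6, and 0.777 at day 30, so the excess of TIMP over MMP at day 30 was seen per length only. All 46 genes together made up 0.0547% of the FPKM of the whole table at day 0, 0.178% at day 6 and 0.893% at day 30. They rest on 12080 reads at day 0 and 105156 at day 30.

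**Figure D1:**
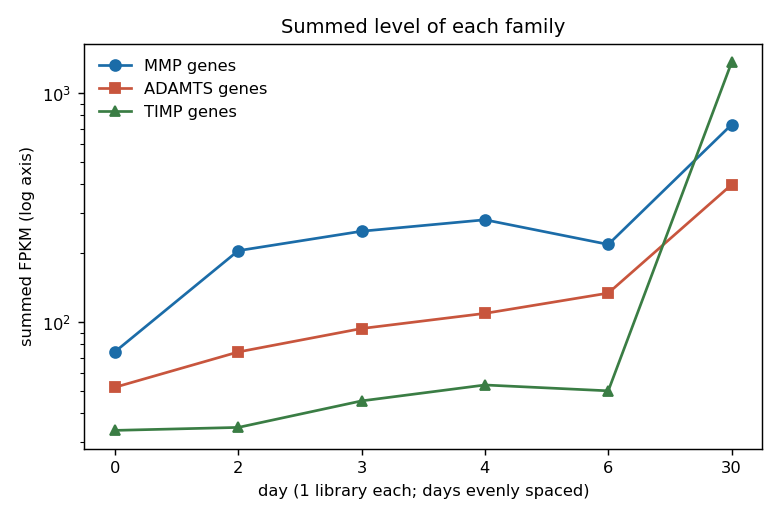
Summed FPKM (vertical log axis) of the MMP, ADAMTS and TIMP genes in each of the 6 libraries (horizontal axis, days evenly spaced), with 1 point per family and library and no error bars because each day has 1 library. The TIMP line is the lowest of the 3 from day 0 to day 6, at 33.6 to 53.1, and the highest at day 30, at 1362.

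Of the 46 genes, 28 reached 5 FPKM in at least 1 library, 10 had their highest level between 1 and 5 FPKM, and 8 stayed under 1 FPKM in every library. Only 16 were at 1 FPKM or more in all 6 libraries. Members at 1 FPKM or more numbered 24 to 26 in the libraries of days 0 to 6 and 31 at day 30. The heatmap of all members shows the main patterns, which are genes present throughout, genes highest on days 0 to 2, genes highest on days 3 to 6, and genes highest at day 30.

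**Figure D2:**
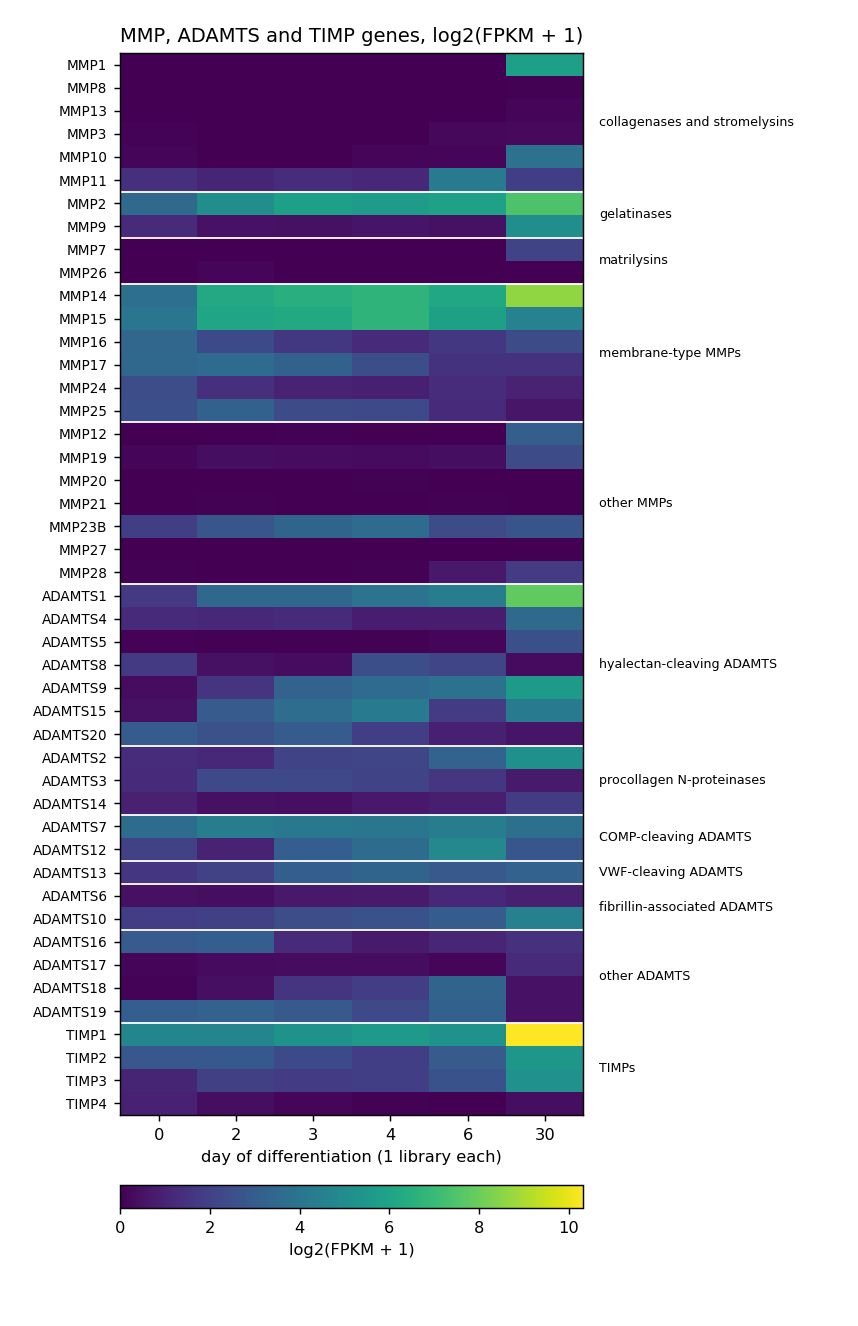
Level of each of the 46 genes (rows, ordered by role, with white lines between roles) on each day (columns, 1 library each), in color as log2(FPKM + 1). TIMP1 and MMP14 at day 30 have the brightest cells, and MMP1, MMP7, MMP10 and MMP12 are dark on every day before day 30.

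Recovered reads per library lay between 13500887 and 15526924. The stem cell marker POU5F1 went from 561 FPKM at day 0 to 0.280 at day 30, against the label of that library. All 9 cardiomyocyte markers examined were at 1 FPKM or more at day 30, where TNNT2 had 14.8 FPKM and MYH6 had 69.0. Their sum was 372 FPKM at day 6 and 278 at day 30, of which MYL7 made 336 and 64.0. Markers of other cell types were present as well at day 30. The 8 fibroblast and stroma markers summed to 8.71 FPKM at day 0, 548 at day 6 and 5449 at day 30, with DPT at 0 and COL3A1 alone at 4173. The 8 endothelial markers summed to between 45.3 and 115 FPKM over the 6 libraries. KDR alone had 83.4 of 86.3 FPKM at day 0 and 63.6 of 105 at day 30. At day 30, 5 of the 8 were at 1 FPKM or more, with CDH5 at 0.319, TIE1 at 0.484 and VWF at 0.491. The 7 smooth muscle and pericyte markers summed to 127 FPKM at day 6 and 287 at day 30, with RGS5 at 94.15 and 14.0 and PDGFRB at 15.2 and 182. The 6 epicardial markers summed to 10.4 and 33.4 FPKM on these days. The 8 hepatic and endoderm markers summed to 454 and 549 FPKM on the same days, and their members moved in both directions. AFP had 1.10 and 299 FPKM, APOA1 264 and 125, and SOX17 49.8 and 2.38. The 10 macrophage and blood markers summed to between 1.34 and 4.82 FPKM up to day 6 and to 13.7 at day 30, with CD68 at 0 and PTPRC at 0.0618. The 6 trophoblast markers summed to at most 0.640 FPKM up to day 6 and to 21.98 at day 30, with PSG1 at 0. The 6 cartilage markers summed to 60.8 and 29.9 FPKM at days 6 and 30, and the 6 neuronal markers to 27.4 at day 30, of which STMN2 made 25.8. In whole organoids a change in the number of cells of a type and a change in RNA per cell cannot be told apart. The part of these cell types in the changes described next was not tested.

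A gene was called higher or lower between 2 days when log2(FPKM + 1) differed by at least 1 and FPKM was at least 1 in either library, which leaves genes low on both days untested. Members that are silent on 1 day enter through the other day, so these counts describe the tested members and not the whole family. At day 2 against day 0, 7 of 27 tested members were higher, where 8.78% of all tested genes and 6.48% of tested protein-coding genes were, and 2 were lower, where 7.75% and 5.28% were. At day 3 against day 2, 4 of 26 were higher (7.13% of all genes, 4.28% of protein-coding) and 1 lower (4.98% and 3.11%), and all 5 were ADAMTS genes. Day 4 against day 3 had 1 of 27 higher (4.23% and 1.85%) and 1 lower (3.59% and 1.6%), again both ADAMTS genes. Day 6 against day 4 had 5 of 27 higher (5.51% and 4.3%) and 3 lower (6.71% and 4.18%). With such small counts, the shares of day 4 against day 3 are near the background. So are the shares of lower members at day 2 (7.41%) and day 3 (3.85%), each against the time point before.

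The longest interval held most of the changes. At day 30 against day 6, 20 of 37 tested members were higher, where 21% of all tested genes and 19.8% of protein-coding ones were, and 6 were lower, where 15.3% and 13.2% were. The higher members were 9 MMP, 8 ADAMTS and 3 TIMP genes, and 9 members were too low to test. The median difference on log2(FPKM + 1) was 1.08 over the 37 tested members and 0.36 over all 46, against 0.08 over all genes tested. Against day 0, day 30 had 21 of 36 tested members higher (25.9% of all genes, 24.4% of protein-coding) and 8 lower (19.1% and 18.4%), with a median of 1.92 over the tested and 0.78 over all 46 members, against 0.13 over all genes tested. These comparisons share the day 30 library. The shares of lower members at day 30, 16.2% against day 6 and 22.2% against day 0, were near those of all tested genes. The 8 members lower than at day 0 were the membrane-type genes MMP16, MMP17, MMP24 and MMP25, and ADAMTS8, ADAMTS16, ADAMTS19 and ADAMTS20.

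**Figure D3:**
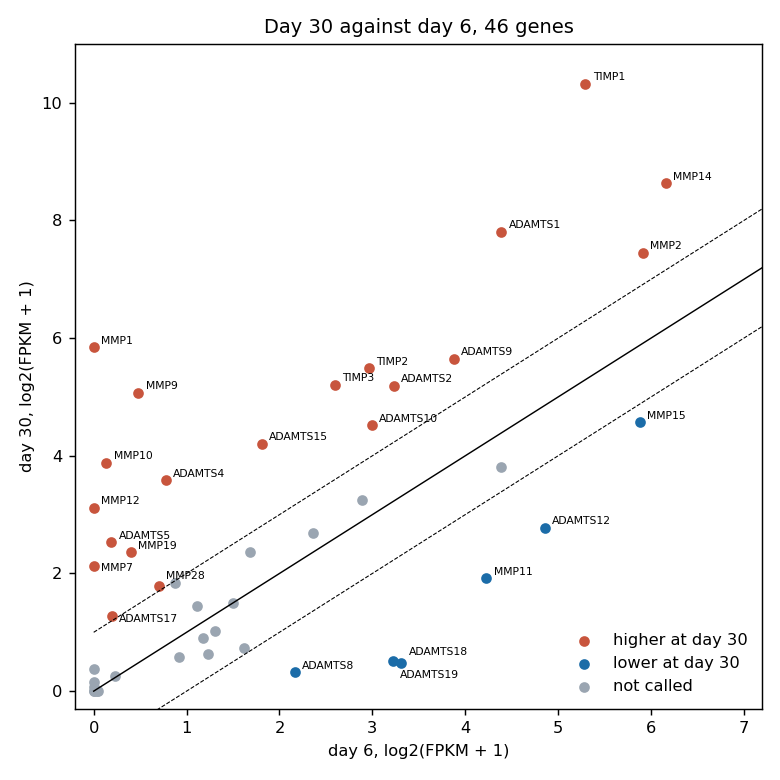
Level of each of the 46 genes at day 6 (horizontal) and day 30 (vertical), both as log2(FPKM + 1), 1 library each. The solid line marks equal levels and the dashed lines a difference of 1. The 20 genes called higher at day 30 lie above the upper dashed line and the 6 called lower lie below the lower one.

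Among 36 members whose highest and lowest day differed by at least 1 on the same scale, 20 were highest at day 30, where 35.4% of all such genes were. Day 0 was the highest day of MMP16, MMP24 and ADAMTS20 (3 members, against 21.2% of all such genes). Day 2 was the highest of MMP17, MMP25, ADAMTS16 and ADAMTS19 (4 members, 10.8%). Day 3 was that of ADAMTS3 alone (1 member, 8.63%). Day 4 was that of MMP15, MMP23B, ADAMTS8, ADAMTS13 and ADAMTS15 (5 members, 11%), and day 6 that of MMP11, ADAMTS12 and ADAMTS18 (3 members, 12.9%).

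TIMP1 (ENSG00000102265, chromosome X, 47582313 to 47586789, plus strand), a secreted inhibitor of most soluble MMPs, had 25.5 FPKM at day 0, 25.3 at day 2, 38.6 at day 3, 47.5 at day 4, 38.3 at day 6 and 1282 at day 30. It was thus within a narrow range for 5 libraries and far above it in the last. It rose 33.5-fold from day 6 to day 30 (95% interval 31.5 to 35.7), on 1019 and 24407 reads. Intervals of folds here cover counting error only. At day 30 it made up 94.1% of the TIMP sum, against 72.9% to 89.4% on the earlier days. TIMP1 had the highest FPKM of all 46 members in the libraries of days 0 and 30, and MMP14 or MMP15 had it on the days between. TIMP1 lies inside SYN1, a synapsin gene on the opposite strand, which had 4.38 FPKM at day 30.

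TIMP2 (chromosome 17, 78852977 to 78925387, minus strand), which also takes part in activating MMP2 at the cell surface, had 6.06, 6.15, 3.94, 2.77, 6.78 and 43.8 FPKM in the same order of days. It rose from day 4 to day 6 (2.44-fold, 2.11 to 2.84) and again to day 30 (6.46-fold, 5.94 to 7.04). TIMP3 (chromosome 22, 32801701 to 32863043, plus strand), which binds to the matrix and inhibits ADAMTS enzymes as well as MMPs, had 1.11, 2.93, 2.59, 2.82, 5.04 and 36.0 FPKM. Its first called rise was at day 30 against day 6 (7.14-fold, 6.42 to 7.97), and day 30 was 32.5-fold above day 0 (25.8 to 41.6). TIMP2 and TIMP3 were thus close to each other at day 30, and both stood far under TIMP1. TIMP4, known for high levels in adult heart, had 0.918 FPKM at day 0 on 22 reads, 0.301 at day 2, 0.127 at day 3, 0.0384 at day 4 on 1 read, 0 at day 6 and 0.294 at day 30 on 6 reads. It was under 1 FPKM in every library and was not tested, and 0 reads at day 6 allow up to 0.105 FPKM. TIMP3 and TIMP4 lie inside SYN3 and SYN2, on the opposite strand, and 10.3% of the exon bases of TIMP4 overlap exons of SYN2.

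**Figure D4:**
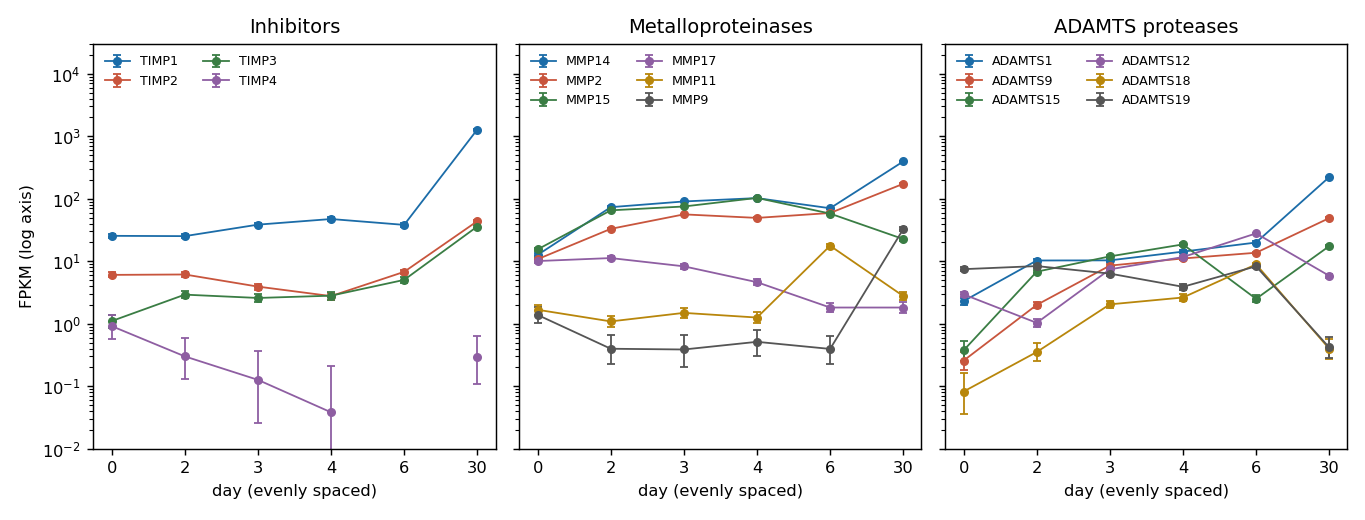
FPKM (log axis) of the 4 TIMP genes, 6 MMP genes and 6 ADAMTS genes by day (evenly spaced, 1 library each), with exact Poisson 95% intervals from recovered reads that cover counting error only. The line of TIMP4 has no point at day 6, where it had 0 reads. TIMP1, MMP14 and ADAMTS1 are the highest of their panels at day 30, at 1282, 395 and 222, while TIMP4 is under 1 in every library.

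MMP14 (ENSG00000157227, chromosome 14, 22836557 to 22849027, plus strand) is the main membrane-type collagenase and activates MMP2. It had 12.7 FPKM at day 0, 73.5 at day 2, 90.7 at day 3, 103 at day 4 (102.6), 70.6 at day 6 and 395 at day 30. It rose 5.80-fold in the first step (5.38 to 6.25) and 5.60-fold from day 6 to day 30 (5.44 to 5.77), with no called change between. It was the MMP gene with the highest level on days 2, 3, 6 and 30, and made up 54.3% of the MMP sum at day 30.

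MMP15 (chromosome 16, 58025566 to 58046901, plus strand), a related membrane-type enzyme, kept step with MMP14 and then parted from it. It had 15.5, 65.4, 75.3, 103 (103.3), 58.0 and 22.7 FPKM on the 6 days. It rose 4.21-fold in the first step (3.93 to 4.51) and fell 2.55-fold from day 6 to day 30 (2.40 to 2.72). The ratio of MMP14 to MMP15 in FPKM was between 0.816 and 1.22 in the 5 libraries of days 0 to 6 and 17.4 at day 30.

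The other 4 membrane-type genes were highest at day 0 or day 2. MMP16 had 9.66, 4.02, 2.18, 1.38, 2.22 and 4.14 FPKM and fell 2.40-fold in the first step (2.21 to 2.62). MMP17, which is held by a lipid anchor, had 10.1, 11.3, 8.31, 4.63, 1.82 and 1.82 FPKM. No single step of MMP17 passed the rule, and day 30 was 5.55-fold below day 0 (4.44 to 7.003). MMP24 had 4.43, 1.73, 1.01, 0.860, 1.48 and 1.03 FPKM, and was 4.31-fold lower at day 30 than at day 0 (3.23 to 5.85). MMP25, also lipid-anchored and best known in leukocytes, had 4.77, 8.31, 4.26, 3.83, 1.35 and 0.549 FPKM. It fell 2.85-fold from day 4 to day 6 (2.24 to 3.64), and was 8.69-fold lower at day 30 than at day 0 (5.88 to 13.3). Exons of antisense or opposite-strand genes cover 35.2% of the exon bases of MMP25 (MMP25-AS1) and 18.1% of those of MMP24 (MMP24OS), and whether the authors' counting separated strands is not given in the sources used here. The fall of MMP25 at day 6 was not called with libraries scaled to the same sum, nor was the day 30 fall of MMP16 against day 0.

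MMP2 (ENSG00000087245, chromosome 16, 55389700 to 55506691, plus strand), the gelatinase of stromal cells, had 10.8 FPKM at day 0, 33.0 at day 2, 56.3 at day 3, 49.5 at day 4, 59.3 at day 6 and 174 at day 30. It rose 3.06-fold in the first step (2.82 to 3.32) and 2.93-fold from day 6 to day 30 (2.83 to 3.03). Between them it went up 1.70-fold from day 2 to day 3 (1.62 to 1.79), which did not reach the rule, and no other step up to day 6 was called. MMP14, MMP2 and TIMP2 form the complex in which MMP14 activates MMP2. In FPKM, MMP2 stood at 1.78 times TIMP2 at day 0, 5.37 at day 2, 14.3 at day 3, 17.8 at day 4, 8.74 at day 6 and 3.96 at day 30. MMP14 stood at 1.17 to 2.28 times MMP2 in all 6 libraries. Both proteases thus rose in the first step while TIMP2 stood at 6.06 and 6.15 FPKM, and all 3 rose to day 30, where the fibroblast and stroma markers were 5449 FPKM in sum. COL3A1 made 4173 of that sum.

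MMP9 (chromosome 20, 46008908 to 46016561, plus strand), the other gelatinase, had 1.38 FPKM at day 0, 0.399 at day 2, 0.388 at day 3, 0.515 at day 4, 0.396 at day 6 and 32.6 at day 30. It rose 82.4-fold from day 6 to day 30 (50.5 to 145), on 16 and 942 reads. MMP9 is abundant in neutrophils and macrophages, and the 10 macrophage and blood markers were 1.34 FPKM in sum at day 6 and 13.7 at day 30, with 5 of 10 at 1 FPKM or more. Their highest, CD14, was at 4.98 FPKM, the granulocyte marker S100A8 at 0.563 and the leukocyte marker PTPRC at 0.0618, and the part of blood cells in the MMP9 level was not tested. The antisense gene SLC12A5-AS1 overlaps 18.4% of its exon bases.

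A run of MMP genes that were nearly silent up to day 6 lies on chromosome 11. From 102520508 to 102955734, a span of 435 kilobases, 9 MMP genes follow each other on the minus strand with no other protein-coding gene between them. In the order of the chromosome they are MMP7, MMP20, MMP27, MMP8, MMP10, MMP1, MMP3, MMP12 and MMP13. No gene of this cluster passed 0.169 FPKM in any library up to day 6, and all 9 together had 23 reads in those 5 libraries. At day 30 they had 1961 reads, and their sum was 81.7 FPKM, which was 11.2% of the MMP sum against 0.133% at day 6.

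MMP1 (ENSG00000196611, 102789920 to 102798160), the interstitial collagenase, had 0 reads on each of days 0, 2, 3, 4 and 6 and 56.5 FPKM at day 30 on 1376 reads, at least 642-fold higher than at day 6 where 3 reads stand in for the 0 found at day 6. It was the third MMP gene by level at day 30, after MMP14 and MMP2. MMP10 (102770503 to 102780628), a stromelysin, had 0.117, 0, 0, 0.144, 0.0987 and 13.8 FPKM, and 3 reads at day 6 against 299 at day 30 gave a ratio of 139 (47.3 to 680). MMP12 (102862736 to 102875034), a macrophage elastase, had 1 read in the 5 earlier libraries and 7.69 FPKM at day 30, at least 83.0-fold higher than at day 6. MMP7 (102520508 to 102530753), a matrilysin of epithelia, had 0 reads up to day 6 and 3.38 FPKM at day 30, at least 45.2-fold higher. The other 5 genes of the cluster stayed low at day 30. MMP3 had 0.198 FPKM there on 5 reads, MMP13 had 0.114 on 4 reads and MMP8 had 0.0471 on 2 reads. MMP20 and MMP27 had 0 reads at day 30, and MMP27 was the only member with 0 reads in all 6 libraries. In the same library the fibroblast and stroma markers were at 5449 FPKM in sum, of which COL3A1 made 4173. The hepatic and endoderm markers were at 549 FPKM in sum, the smooth muscle and pericyte markers at 287 and the cardiomyocyte markers at 278. Sums of the endothelial (105), epicardial (33.4), cartilage (29.9) and neuronal (27.4) markers were lower. The trophoblast markers were at 21.98 FPKM in sum, of which ERVFRD-1 made 15.9, and the macrophage and blood markers at 13.7. The part of these cell types in the levels of the cluster was not tested. Along the chromosome, genes that were called higher are interspersed with genes that were not.

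**Figure D5:**
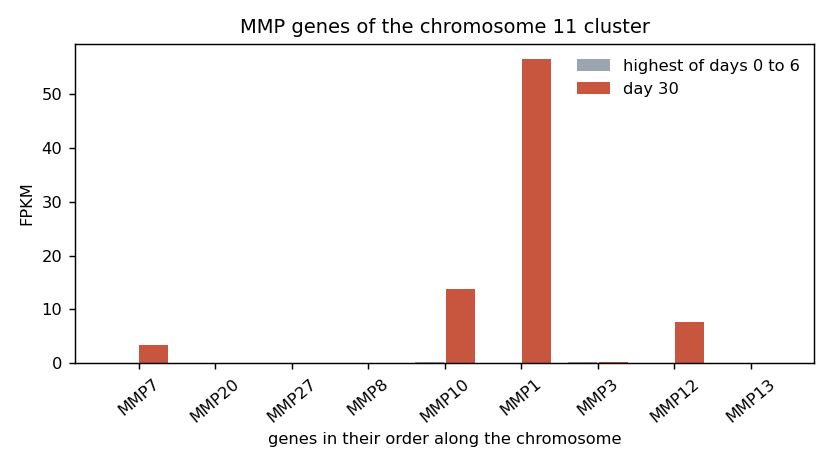
FPKM of the 9 MMP genes of the chromosome 11 cluster, in their order along the chromosome, as the highest level of the 5 libraries of days 0 to 6 (gray bars) and the level at day 30 (red bars). MMP1 at 56.5, MMP10 at 13.8, MMP12 at 7.69 and MMP7 at 3.38 stand out at day 30, and the gray bars are at most 0.169.

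RefSeq promoters (GRCh38.p14, 250 bases before to 50 after the start) matched 27 of the 46 members, and 5 of the 9 cluster genes. Those of MMP7 and MMP10, which rose together, and MMP20, a neighbour with 0 reads at day 30, are shown for comparison. Each line gives the 120 bases before the start, 5′ to 3′ on the minus strand of chromosome 11, with TGANTCA and TATAAA matches in capitals. The windows are chr11:102530748-102530867 (MMP7), chr11:102780629-102780748 (MMP10) and chr11:102625333-102625452 (MMP20).
MMP7: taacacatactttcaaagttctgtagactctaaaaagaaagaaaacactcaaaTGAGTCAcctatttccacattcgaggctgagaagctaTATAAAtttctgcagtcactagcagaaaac
MMP10: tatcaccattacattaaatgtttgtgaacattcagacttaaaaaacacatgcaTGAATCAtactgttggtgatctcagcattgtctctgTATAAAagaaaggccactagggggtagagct
MMP20: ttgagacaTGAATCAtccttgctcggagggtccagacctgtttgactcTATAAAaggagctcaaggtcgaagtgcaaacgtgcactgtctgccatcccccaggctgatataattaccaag

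TGANTCA, in which N is any base, includes the AP-1 site TGAGTCA but is looser than it. TGANTCA and TATAAA, the TATA box, were searched on both strands, and they do not overlap in these windows. The match in MMP7 reads TGAGTCA, and those in MMP10 and MMP20 read TGAATCA. The counts of TGANTCA below are thus not counts of AP-1 sites. MMP7 and MMP10 both hold TGANTCA at 67 bases before the start, and hold TATAAA at 30 and 31 bases before it. MMP20, which had 0 reads at day 30, also holds both, at 112 and 72 bases before its start. The promoter of MMP8 holds TATAAA only, at 110 bases before its start, and no match was found for MMP27. Of 27 member promoters, 4 hold TGANTCA (MMP7, MMP10, MMP20 and ADAMTS12), which is 14.8%, against 7.76% of 27305 promoters of the same length. TATAAA is in 7 of the 27 (25.9%), against 11.95% of all. A match is a run of letters and not evidence of binding.

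Among the MMP genes outside the cluster, MMP11 (chromosome 22, 23768226 to 23784316, plus strand), a stromelysin of stromal cells cut to its active form inside the cell, stood out at day 6. It had 1.68, 1.09, 1.50, 1.26, 17.7 and 2.78 FPKM on the 6 days. It rose 14.1-fold from day 4 to day 6 (11.5 to 17.4) and fell 6.37-fold to day 30 (5.45 to 7.48), so that only the day 6 library was high. MMP23B had 2.79, 5.85, 9.02, 11.3, 4.15 and 5.45 FPKM and fell 2.73-fold from day 4 to day 6 (2.27 to 3.30). Its nearly identical copy MMP23A, annotated as a pseudogene and so outside the choice of genes, had between 0.910 and 3.36 FPKM, and reads of the pair may have been split. MMP19 and MMP28 were low until day 30, at up to 0.322 and 0.627 FPKM, and had 4.12 and 2.44 FPKM there. MMP19 rose 12.8-fold from day 6 (8.53 to 20.01). MMP28 rose 3.88-fold (2.55 to 6.06), a call that was lost under both other scalings. The exons of MMP19 overlap those of TMEM198B, on the opposite strand, over 17.4% of their bases. MMP21, known for its part in left-right patterning, and MMP26 had at most 0.0324 and 0.142 FPKM.

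The ADAMTS genes that cut versican and related proteoglycans include the 3 of the family with the greatest folds of day 30 over day 0, namely ADAMTS9 (190-fold, 140 to 267), ADAMTS1 (96.3-fold, 84.7 to 109.9) and ADAMTS5 (69.6-fold, 36.4 to 153). The fold of ADAMTS5 rests on 9 reads at day 0, and its interval overlaps that of ADAMTS15 (46.4-fold, 32.5 to 68.6). On log2(FPKM + 1), the difference of ADAMTS5 (2.43) was below those of ADAMTS2 (3.87), ADAMTS15 (3.75) and ADAMTS10 (2.66). ADAMTS1 (ENSG00000154734, chromosome 21, 26835747 to 26845409, minus strand), a versican-cutting enzyme of the embryonic heart, had 2.31 FPKM at day 0, 10.3 at day 2, 10.4 at day 3, 14.3 at day 4, 19.97 at day 6 and 222 at day 30. It rose 4.46-fold in the first step (3.87 to 5.15) and 11.1-fold from day 6 to day 30 (10.7 to 11.6), and made up 55.8% of the ADAMTS sum at day 30 against 14.9% at day 6. ADAMTS9 (chromosome 3, 64515654 to 64688000, minus strand), which also cuts versican, had 0.258, 2.01, 8.53, 11.1, 13.7 and 49.1 FPKM. It rose 7.78-fold in the first step (5.60 to 11.1), 4.25-fold in the next (3.77 to 4.80) and 3.58-fold from day 6 to day 30 (3.42 to 3.75). No level of ADAMTS1 or ADAMTS9 was below that of the day before it in the series. ADAMTS4 had between 0.711 and 1.36 FPKM up to day 6 and 10.99 at day 30, a 15.5-fold rise (12.9 to 18.7). ADAMTS5, an aggrecanase that lies 72.5 kilobases from ADAMTS1, had at most 0.141 FPKM up to day 6 and 4.76 at day 30, 33.9-fold higher (22.2 to 54.6).

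ADAMTS15 and ADAMTS8 lie 19.98 kilobases apart on chromosome 11 and moved differently. ADAMTS15 (130448974 to 130476641, plus strand) had 0.376, 6.82, 12.0, 18.6, 2.51 and 17.5 FPKM. It rose 18.1-fold in the first step (12.6 to 26.9), fell 7.43-fold from day 4 to day 6 (6.50 to 8.53) and rose 6.96-fold to day 30 (6.07 to 8.02), which gives high levels on days 2 to 4 and 30 and low ones on days 0 and 6. ADAMTS8 (130404925 to 130428993, minus strand) had 2.42, 0.398, 0.277, 4.63, 3.49 and 0.251 FPKM. It fell 6.08-fold in the first step (4.07 to 9.37), rose 16.7-fold from day 3 to day 4 (10.4 to 28.5) and fell 13.9-fold to day 30 (8.16 to 25.8). ADAMTS8 was the 1 member called higher between days 3 and 4. ADAMTS20, a relative of ADAMTS9, had 7.06, 4.83, 6.95, 2.75, 0.887 and 0.492 FPKM, fell 2.53-fold from day 3 to day 4 (2.21 to 2.89), and was 14.4-fold lower at day 30 than at day 0 (10.6 to 19.9).

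Of the enzymes that remove the amino-terminal propeptide of fibrillar procollagens, ADAMTS2 (chromosome 5, 179110851 to 179345430, minus strand) rose late. It had 1.50, 1.30, 3.30, 3.43, 8.38 and 35.5 FPKM, with a 2.44-fold rise from day 4 to day 6 (2.20 to 2.72) and a 4.24-fold rise to day 30 (3.98 to 4.52). Of the collagen genes listed as substrates, COL1A1, COL1A2 and COL3A1 were called higher in both steps, and COL4A1 and COL4A2 in the second only. COL2A1 was called higher in the first step and lower in the second (51.8 to 6.09 FPKM). COL1A1 had 73.8 FPKM at day 4, 270 at day 6 (269.9) and 668 at day 30, and COL3A1 had 0.595, 174 and 4173. ADAMTS3 had 1.37, 3.80, 3.82, 3.34, 2.07 and 0.655 FPKM and rose 2.77-fold in the first step (2.29 to 3.37). ADAMTS14 had at most 0.941 FPKM up to day 6 and 2.57 at day 30, a difference of 0.96 on the log2 scale that missed the rule. ADAMTS2 and ADAMTS3 thus stood in opposite order at the ends of the middle period, with ADAMTS3 higher at day 2 and ADAMTS2 higher at days 6 and 30.

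ADAMTS7 and ADAMTS12, which cut the cartilage protein COMP, differed in pattern. ADAMTS7 (chromosome 15, 78759203 to 78811431, minus strand) had 11.7, 19.2, 16.7, 15.6, 19.95 and 13.1 FPKM, passed the rule in none of the 6 comparisons, and was the ADAMTS gene with the highest level on days 0, 2 and 3. ADAMTS12 (chromosome 5, 33523535 to 33892192, minus strand) had 2.96, 1.04, 7.44, 11.7, 27.9 and 5.87 FPKM. It rose 7.18-fold from day 2 to day 3 (6.08 to 8.53) and 2.39-fold from day 4 to day 6 (2.26 to 2.52), and fell 4.76-fold to day 30 (4.40 to 5.16). It was the highest ADAMTS gene at day 6.

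ADAMTS13, the protease of von Willebrand factor, had 2.13, 3.16, 7.44, 8.98, 6.42 and 8.45 FPKM and rose 2.36-fold from day 2 to day 3 (2.05 to 2.72). Its substrate VWF rose in the same step, from 1.64 to 20.3 FPKM, and was at 0.491 at day 30. ADAMTS10 (chromosome 19, 8580242 to 8610735, minus strand), which binds fibrillin, had 2.63, 2.86, 4.47, 5.03, 6.99 and 21.9 FPKM and rose 3.13-fold from day 6 to day 30 (2.86 to 3.43), a step in which FBN1, which encodes fibrillin-1, went from 3.65 to 53.3 FPKM. ADAMTS6, the close relative of ADAMTS10, had between 0.319 and 1.26 FPKM and passed the rule in no comparison.

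The remaining 4 ADAMTS genes have few known substrates. ADAMTS16 had 6.77, 7.39, 1.37, 0.691, 1.15 and 1.74 FPKM and fell 5.41-fold from day 2 to day 3 (4.43 to 6.64). ADAMTS19 (chromosome 5, 129460265 to 129738683, plus strand), linked to heart valve disease, had 7.48, 8.38, 6.36, 3.91, 8.31 and 0.419 FPKM, so that only the day 30 library was low, 19.8-fold below day 6 (13.6 to 30.0). ADAMTS18 had 0.0825, 0.353, 2.05, 2.63, 8.93 and 0.400 FPKM. It rose 5.79-fold from day 2 to day 3 (4.07 to 8.43) and 3.39-fold from day 4 to day 6 (2.97 to 3.88), and fell 22.3-fold to day 30 (15.8 to 32.6). ADAMTS17 had at most 0.262 FPKM up to day 6 and 1.41 at day 30, 9.60-fold higher than at day 6 (6.05 to 16.0), and this call was lost under both other scalings.

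Other genes of the pathway were taken from lists made by function. Over all tested genes, 21% were higher and 15.3% lower at day 30 against day 6, and 25.9% and 19.1% against day 0. Of 12 genes around pro-enzyme activation, 11 were tested at day 30 against day 6, with 5 higher and 0 lower. Against day 0, 11 were tested, with 9 higher and 0 lower. Among those higher than at day 6 was PLAUR (2.45 to 41.4 FPKM), the receptor of the plasminogen activator PLAU. FURIN, the convertase that activates membrane-type MMPs and many ADAMTS proteases, went from 13.9 FPKM at day 2 to 36.1 at day 3, where 3 of 8 tested genes of this list were higher and 0 lower (7.13% and 4.98% of all genes). The serine protease HTRA1 rose in that step from 4.85 to 70.4 FPKM and to 261 at day 4.

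Of 7 other inhibitors and clearance genes, 6 were tested at day 30 against day 6, with 4 higher and 1 lower. TFPI2, a serine protease inhibitor, rose from 2.07 to 491 FPKM, and A2M, a plasma inhibitor that traps proteases, from 0.272 to 20.2. The lower gene was PCOLCE (53.6 to 25.9 FPKM), which enhances procollagen processing and is no inhibitor. RECK, a membrane-bound MMP inhibitor, rose from 2.73 FPKM at day 4 to 6.87 at day 6. Of 15 other metalloproteinases, 11 were tested at day 30 against day 6, with 5 higher and 1 lower. On log2(FPKM + 1) the greatest rises were those of MEP1A (0.0388 to 3.94 FPKM) and ADAM9 (6.38 to 31.9), and the fall was that of ADAM19 (28.3 to 7.30). Of 7 ADAMTS-like genes found of 8 listed, which resemble ADAMTS proteases but lack the protease domain, 6 were tested, with 3 higher and 0 lower. On log2(FPKM + 1) the greatest rises were those of ADAMTSL2 (0.816 to 62.7 FPKM) and ADAMTSL5 (0.686 to 5.16). Of 4 genes for sugar addition to proteins, all tested, 0 were higher and 1 lower, namely KDELC2 (14.3 to 4.81 FPKM). Which proteins KDELC2 modifies was not examined here.

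Of 18 substrates, 15 were tested at day 30 against day 6, with 10 higher and 3 lower, the latter a share near that of all tested genes. The fibrillar collagen gene COL3A1 rose from 174 to 4173 FPKM, while the cartilage collagen COL2A1 (51.8 to 6.09 FPKM) and FBN2 (41.8 to 7.06) fell most on log2(FPKM + 1). Versican (VCAN), the proteoglycan that ADAMTS1 and ADAMTS9 cut, stood at 96.1 FPKM at day 6 and 86.1 at day 30 and was not called, while ADAMTS1 rose 11.1-fold. At day 3 against day 2, 8 of 14 tested substrates were higher and 0 lower, among them FN1 (49.1 to 331 FPKM) and VCAN (29.1 to 65.7). COL1A1 and COL3A1 also stand in the fibroblast and stroma list, which moved in the same steps.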

How the data were processed

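The authors deposited FPKM values for 58735 genes in 6 libraries. CASAVA, HISAT2 and featureCounts 1.5.0-p3 are named in the submitters' processing notes. Their settings, strand use and genome build were not given in the sources used here. Every one of the 58735 genes matches GENCODE 29 (GRCh38) in ID, position and strand. Multiplied by gene length, each FPKM came out as whole reads within 0.001 read after division by 1 constant per library, and these reads were used for errors (Python 3.11.15, numpy 2.4.6, scipy 1.17.1). The denominator behind FPKM was 0.826 times the recovered reads at day 30 and 1.12 times at day 6.

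The scale log2(FPKM + 1) was used for differences; its pseudocount of 1 makes changes of low genes look smaller. There was no test, as each day had 1 library. Folds are FPKM ratios with exact conditional binomial 95% intervals, and levels have exact Poisson intervals. Reads are not counted molecules, so intervals cover counting error only. Bounds use a floor of 3 reads per library. The 4 TIMPs and members reaching 5 FPKM are given in every library, called members are named per comparison (at most 10 in each direction), and pathway lists by counts with up to 2 genes in each direction. Some genes that this rule names are not reported here. FURIN, HTRA1, RECK, VCAN, VWF, FN1, FBN1 and COL1A1, the marker genes named, and the members under 5 FPKM given singly were added after their values were seen. Members and lists were chosen with earlier results of these data known.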

Additional observations from a re-analysis of the deposited data

How the results depend on the processing

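Alternatives were a pseudocount of 0.1, no minimum FPKM, a minimum of 5, libraries scaled to the same sum of FPKM or by recovered read totals, a difference of 2, and an interval that excludes 1. No member changed direction in a comparison where it was called, under the other pseudocount or either scaling, and all 79 calls kept an interval that excludes 1. Sizes were less stable than directions. Of the 79 log2 differences, 60 were marked as moved with the pseudocount of 0.1, 31 with read totals and 17 with the same sum. Of the family sums by day, 15 were marked as moved and 3 as the same under the same-sum scaling, and 14 and 4 with read totals. Scaling by read totals lowered the median of all genes at day 30 against day 6 by 0.36 on the log2 scale, and scaling to the same sum by 0.25. Both kept 18 of the 20 higher calls and all 6 lower ones. The same-sum scaling also moved that median by 0.19 at day 3, -0.12 at day 4 and 0.16 at day 6, and read totals by -0.19 for day 30 against day 0. Folds are FPKM ratios without a pseudocount and shift further. At day 30 against day 6 the shift in log2 is -0.44 with read totals and -0.31 with the same sum. For MMP2 in that comparison, the difference of 1.53 on log2(FPKM + 1) became 1.10 and 1.23. Intervals of folds do not cover such shifts. With a difference of 2, higher members numbered 3 at day 2, 1 at day 3, 1 at day 6 and 13 at day 30, each against the time point before, and lower members numbered 0 at day 2, 0 at day 3, 0 at day 4, 1 at day 6 and, for day 30 against day 0, 2. With a pseudocount of 0.1, 5 members were lower at day 2 (MMP9, MMP24 and ADAMTS12 were added) and 5 at day 6. With a minimum of 5 FPKM, 1 was lower at day 2, 0 were higher at day 4 and 5 were lower at day 30 against day 0. Other counts lay within 1.5 times the main one. The highest day moved for 2 of 36 members under the same-sum scaling, and without day 30 for the 20 that were highest there. No paired analysis was possible because each day has 1 library. Leaving out a replicate was not possible either. Depth limits TIMP4, MMP3, MMP8, MMP13, MMP20, MMP21 and MMP26, which rest on a few reads.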
